A study of Mus musculus with 14 samples.

Results

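Olfactory epithelia of 4 newborn mice kept with the odor 2-phenylethylamine (PEA) from P0 to P5 were compared with those of 4 unexposed mice, 8 of the 14 mice of the series, and the genes outside the odorant receptor (Olfr) and trace amine-associated receptor (Taar) families are described. The samples were chosen by their records, and the genes by level alone: 17322 of 51211 gene symbols reached a mean normalized count of 10 over the 8 mice, and 16319 of these were neither Olfr nor Taar genes. Every mouse was wild type by its record and was taken at P5. The records name C57BL/6 as the strain, while the study's methods name pups of the outbred CD-1 stock for odor exposure. By the methods, the PEA source stood in the home cage with the mother and the pups. The records give neither cage nor litter, so exposure cannot be told apart from differences between cages or litters, and p-values measure the spread between these mice. RNA was total RNA depleted of ribosomal RNA, in stranded libraries, and the values are gene-level estimates scaled for depth by the authors, called normalized counts here.

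PEA is a trace amine that serves as a predator odor to mice, and TAAR4 is a sensitive receptor for it. The olfactory epithelium holds olfactory sensory neurons (OSNs), each of which uses 1 receptor gene, sustentacular cells that support them and carry detoxifying enzymes, horizontal and globose basal cells from which the tissue is renewed, microvillar cells and mucus-making glands. Odor experience is known to change the RNA of a set of activity-dependent genes in OSNs.

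Genes were compared by limma after the transform log2(normalized count + 1), and p-values were adjusted over all 17322 genes by the method of Benjamini and Hochberg. Each log2 difference below is the PEA-exposed minus the control mean on that scale, a log2 fold change that understates changes of low genes. A gene is called when its adjusted p is under 0.05. With exposure, 31 genes were called (0.179% of those tested), 25 higher (0.144%) and 6 lower (0.0346%). Only 2 of them, Olfr888 and Olfr890, were receptor genes, and the other 29 are the subject here. Pseudogenes made up 8 of the 31 calls. Of the 25 genes called higher, 11 had a control mean under the filter of 10 and passed it through the exposed mice, among them Ang4, Ang5 and all 7 called pseudogenes that rose, so their number is not read against that of other genes. For each of the 31 genes the 4 exposed mice lay all above or all below the 4 control mice, as they did for 9.32% of all genes tested (5.46% higher and 3.86% lower). With any single mouse left out, 15 of the 31 stayed called: Ang4, Ang5, Gm9118, Gm8113, Rps26-ps1, Gm6563, Gm6644, Rpl15-ps2, Rpl15-ps6, Ky, Padi4, Tmem181c-ps, Gm49708, Gm5487 and Csnk2a3. The other 16 lost the call without at least 1 mouse, and without exposed mouse 2 or exposed mouse 3 the total was 19. By high Xist RNA, 2 control and 3 exposed mice were female. With Xist as a covariate 23 genes were called, 21 of them among the 31, and the calls of Ap5b1, Cyp3a13, Dydc2, H2-K1, Lzts1, Muc5ac, Ndufa11, Ppih, Ulbp1 and Utp25 were lost.

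**Figure D1:**
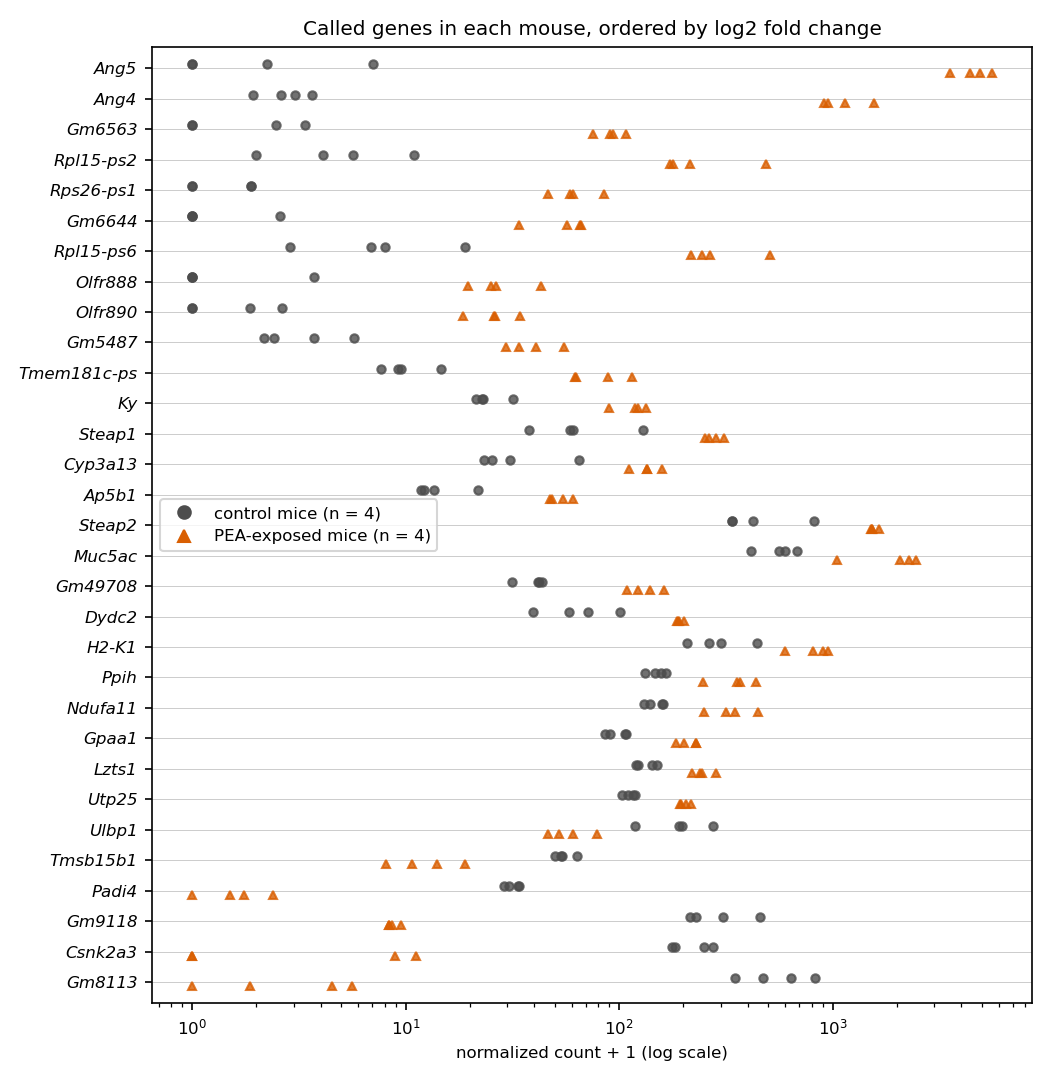
Normalized count + 1 on a log axis for the 31 called genes in each of the 4 control mice (grey circles) and 4 PEA-exposed mice (orange triangles), ordered by log2 difference. The groups are apart in every row, and for Ang4 and Ang5 the distance is wider than for any other gene that rose.

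Before the genes themselves, properties of the libraries that moved with exposure are given. Normalized counts added up to 11476120 to 12467331 per mouse, 24369 to 26199 symbols were above 0, and the depth of the libraries is unknown after the authors' scaling. Exposed mice had higher values for genes with GC-rich transcripts. With genes divided into 4 classes of GC content, the median log2 difference was -0.15 in the lowest class (28.3% to 43.7%) and 0.22 in the highest (53.7% to 78.3%). At an unadjusted p under 0.05, 22.6% of the GC-rich class were higher and 0.847% lower, against 1.34% higher and 12.2% lower in the GC-poor class. The difference between the GC-rich and GC-poor classes was 0.21, 0.66, 0.32 and 0.32 in exposed mice 1 to 4 and lay between -0.11 and 0.10 in control mice. Rn7s1, the RNA of the signal recognition particle, also kept the groups apart, at 249249 to 546377 in control and 599757 to 836724 in exposed mice (log2 difference 0.93, or 0.54 GC-corrected). Whether this came from the libraries or the tissue was not tested. A second fit, added after the values were seen, removed the GC trend from each mouse, and its values are given as GC-corrected beside the called genes and lists that they move most. It called 28 of 17005 genes (0.165%), 22 higher (0.129%) and 6 lower (0.0353%), and 26 of them were among the 31.

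**Figure D2:**
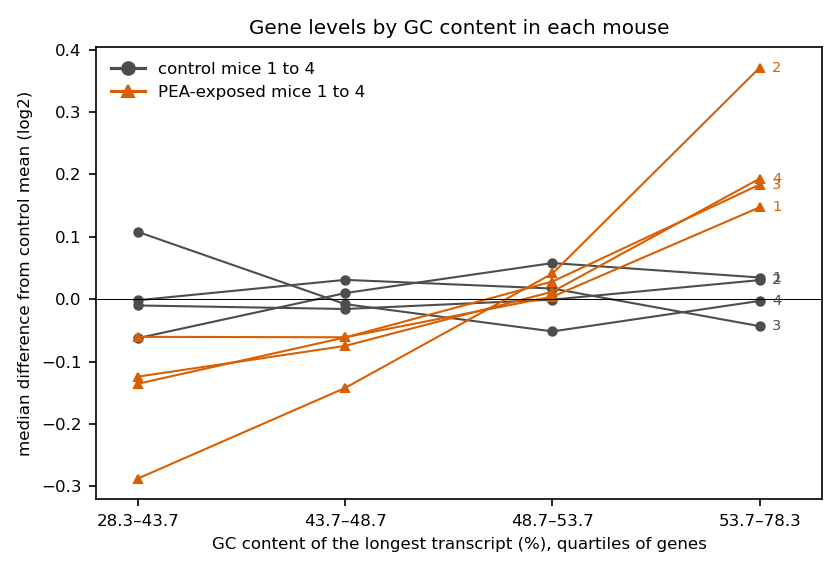
Median difference of each mouse from the mean of the control mice (log2, y axis) for the genes in 4 classes of GC content of the longest transcript (x axis). The lines of the 4 exposed mice climb from left to right, most steeply in exposed mouse 2, while those of the 4 control mice stay near 0.

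Ang4 and Ang5, a pair of angiogenin genes, had the largest increases. Ang4 and Ang5 encode small secreted ribonucleases of the ribonuclease A family, of which Ang4 is best known as a product of gut epithelium. Both lie on GRCm38 chromosome 14, Ang4 (ENSMUSG00000060615) at 51763878 to 51773590 and Ang5 (ENSMUSG00000053961) at 43957069 to 43963072, so they are separate loci. The stretches upstream of and into the 2 genes are alike, and are shown to give the extent of their likeness. Other angiogenins were not compared in this way. Whether the likeness bears on the levels, and how reads were divided between the 2 genes, was not tested. The 300-base promoter windows of RefSeq (GRCm38.p6), 250 bases before to 50 after the start, were identical at 254 of 283 aligned positions, and the part nearest the start is printed 5′ to 3′ with capitals at bases that differ or have no partner in the other gene. The stretch of Ang4 is chr14:51773545-51773664 on the minus strand and that of Ang5 is chr14:43956994-43957118 on the plus strand.
Ang4: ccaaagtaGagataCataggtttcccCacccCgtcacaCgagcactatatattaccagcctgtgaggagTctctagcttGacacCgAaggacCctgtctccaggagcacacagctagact
Ang5: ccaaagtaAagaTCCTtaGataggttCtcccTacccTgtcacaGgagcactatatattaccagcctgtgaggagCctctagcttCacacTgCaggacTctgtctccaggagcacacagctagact
Along their longest transcripts the 2 genes were 88.9% identical over 696 bases.

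Ang5 was 1.24, 0, 6.02 and 0 in control mice and 3559, 4885, 4412 and 5582 in exposed mice. Ang4 was 0.927, 2.66, 2.03 and 1.61 in control mice and 915, 951, 1148 and 1556 in exposed mice. Every exposed mouse thus held both RNAs at a high level and no control mouse held either above 6.02. The log2 difference was 11.16 for Ang5 (SE 0.53, adjusted p = 7.15e-06 by limma) and 8.68 for Ang4 (SE 0.25, adjusted p = 1.04e-07 by limma). Of 20 ribonuclease A genes 6 passed the filter, and apart from Ang4 and Ang5 none had an unadjusted p under 0.05. Ang2, a further angiogenin below the filter and named after its values were seen, was 0 to 2.63 in control and 4.64 to 14.4 in exposed mice. The other angiogenins below the filter overlapped between groups, Ang at 6.88 to 8.65 in control and 4.78 to 18.7 in exposed mice, and Ang6 at 1.03 or less in every mouse. The Kir2.1 experiment of the same series gave no PEA, but its mice carried other alleles, 3 of 6 with a Kir2.1 transgene, its libraries were made by poly-A selection and sequenced without strand, and its values were scaled separately, so levels there are given with no comparison. In it Ang4 reached 1.02 and Ang5 1.01 at most over 6 mice.

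The chromosome 14 neighbourhood of Ang5 held genes that differed in both directions. Of 11 other tested genes that start within 1 Mb of Ang5, 7 had an unadjusted p under 0.05, 6 of them lower, against 15.0% of all genes. Among them was Gm8113, a predicted gene at 43925390 to 43933411 that was called in the opposite direction. Gm8113 was 350, 635, 472 and 826 in control mice and 0, 0.868, 4.62 and 3.52 in exposed mice. It fell by 7.69 on the log2 scale (SE 0.52, adjusted p = 0.000125 by limma), and in the Kir2.1 experiment it lay between 413 and 573 in all 6 mice. Gm49087, also within 1 Mb, was 20.7 to 109 in control and 1.72 to 8.56 in exposed mice (log2 difference -3.28, adjusted p = 0.0568 by limma). Gm7324, the only higher one of the 7, was 0, 0, 0 and 7.33 in control mice and 12.3 to 54.0 in exposed mice (log2 difference 4.31, adjusted p = 0.0680 by limma). Its control mean of 1.83 was under the filter, as were the exposed means of Gm8113 (2.25) and Gm49087 (5.27), so each passed through 1 group. Gm49083, among the lower ones, is 96.9% identical to Gm8113 over 2386 bases, and how reads were divided between them was not tested. The 7 are therefore not read as a result about the region. Gm49087, Gm7324 and Gm49083 were named after their values were seen. Neighbourhoods of other called genes varied. Of 40 neighbours of Ang4 4 had an unadjusted p under 0.05, and none of 18 around Rps26-ps1 or 12 around Gm49708 did. The share was 63.6% around Ang5, but it also exceeded 15.0% around others, with 43.1% around Gpaa1, 35.6% around Ndufa11 and 26.8% around Muc5ac. Around Gpaa1, Ndufa11 and Muc5ac every such neighbour was higher, as GC-rich genes often were. Neighbours were not counted after GC correction, so these shares are not read as local.

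**Figure D3:**
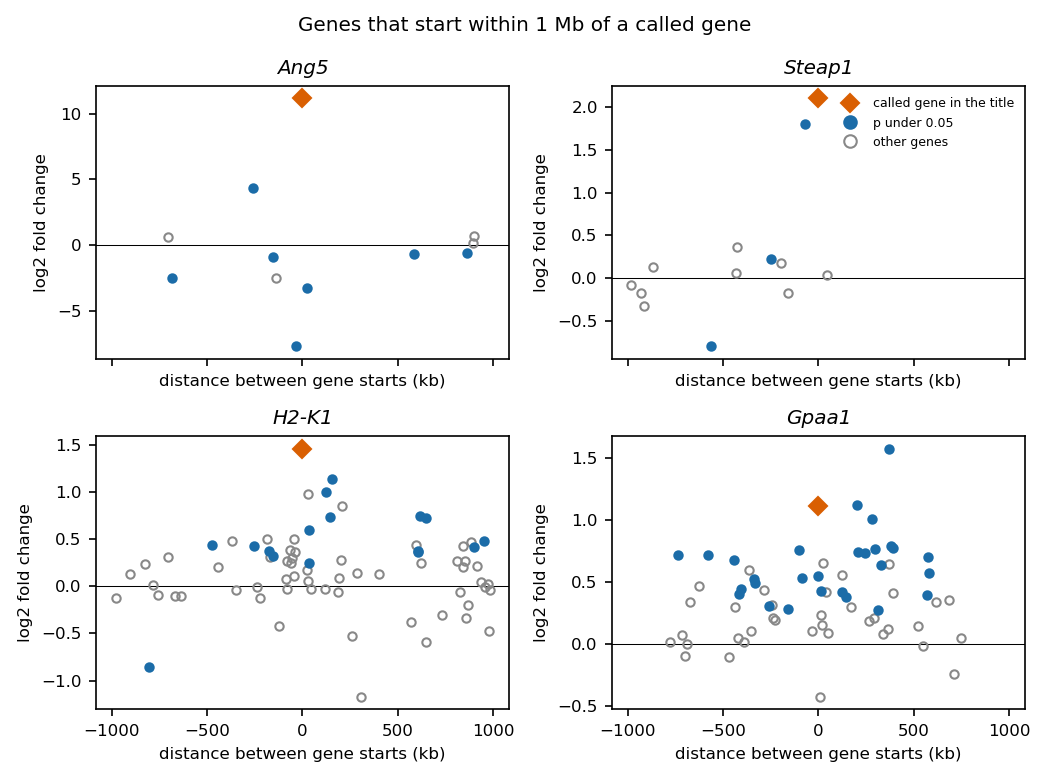
Log2 fold change (y axis) of the tested genes that start within 1 Mb of Ang5, Steap1, H2-K1 and Gpaa1, against the distance between gene starts in kb. The called gene in the title is the orange diamond, and genes at an unadjusted p under 0.05 are filled. Around Ang5 values far below and above 0 lie side by side. Around Gpaa1 28 of 65 neighbours were higher and none lower, against 8.93% and 6.04% of all genes.

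Several called genes are copies of other genes. Of the 31, 12 share at least 40% of their longest transcript with another gene at 95% identity or more, and fall into 10 groups of near-identical genes. Reads that match several copies are divided between them by the estimation, so the copies of a group were added up in each mouse. Gm6563, a processed pseudogene on chromosome 19 (23675848 to 23676480), and its parent Sarnp on chromosome 10 (128817333 to 128877629), a gene for an RNA-export protein, are such copies. They differ at 1 base of 633, A288G counted from the start of the Gm6563 transcript with the base of Sarnp last, and 29 bases around it are printed as GENCODE vM21 gives them, with that base in capitals.
Gm6563: aagattacatctggAatacctcagactga
Sarnp: aagattacatctggGatacctcagactga

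Gm6563 was 0, 0, 2.38 and 1.47 in control mice and 107, 92.6, 74.1 and 89.6 in exposed mice (log2 difference 5.74, SE 0.46, adjusted p = 0.000424 by limma). Sarnp was 742, 542, 688 and 462 in control mice and 290, 414, 367 and 436 in exposed mice, all exposed mice below all controls. Their sum was 610 ± 129 in control and 468 ± 59.1 in exposed mice (mean ± SD, n = 4 per group), and the groups overlapped (exact two-sided permutation p = 0.114). The pseudogene thus held part of the sum in exposed mice and almost none in control mice.

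Ppih, a peptidyl-prolyl isomerase of the spliceosome, rose by the test and its copy on chromosome 5, Gm7879, had lower values in all exposed mice. They differ at 2 of 566 aligned bases, and the first difference, A94G counted from the start of the Ppih transcript, is in capitals.
Ppih: gttggtcgcatgaaAatcgagctctttgc
Gm7879: gttggtcgcatgaaGatcgagctctttgc
Ppih was 132, 165, 157 and 147 in control mice and 246, 370, 355 and 436 in exposed mice (log2 difference 1.20, SE 0.17, adjusted p = 0.0284 by limma). Gm7879 was 231, 204, 241 and 171 in control mice, 118 in exposed mouse 1 and 0 in exposed mice 2 to 4. Summed with a further copy, Gm8719, the group was 368 ± 35.5 in control and 382 ± 36.3 in exposed mice (mean ± SD, n = 4 per group, exact two-sided permutation p = 0.571). Ppih and Gm7879 were thus apart between the groups while their sum overlapped.

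Rpl15, a protein of the large ribosomal subunit, has 2 called pseudogenes and another, Rpl15-ps3, that was 0 in the same 3 exposed mice as Gm7879. Rpl15-ps2 was 0.990 to 9.98 in control and 173 to 487 in exposed mice (log2 difference 5.65, adjusted p = 0.00104 by limma), and Rpl15-ps6 was 1.87 to 18.0 and 217 to 508 (log2 difference 5.29, adjusted p = 0.00141 by limma). Rpl15-ps3 was 564, 301, 542 and 366 in control mice, 158 in exposed mouse 1 and 0 in exposed mice 2 to 4. Over the 8 genes of the group the sum was 3614 to 4218 in control and 4616 to 6346 in exposed mice, 0.39 higher on the log2 scale (SE 0.11). Rpl15 itself, which holds most of the sum, was 3026 to 3821 in control and 4011 to 5307 in exposed mice (log2 difference 0.39, unadjusted p = 0.00650 by limma).

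**Figure D4:**
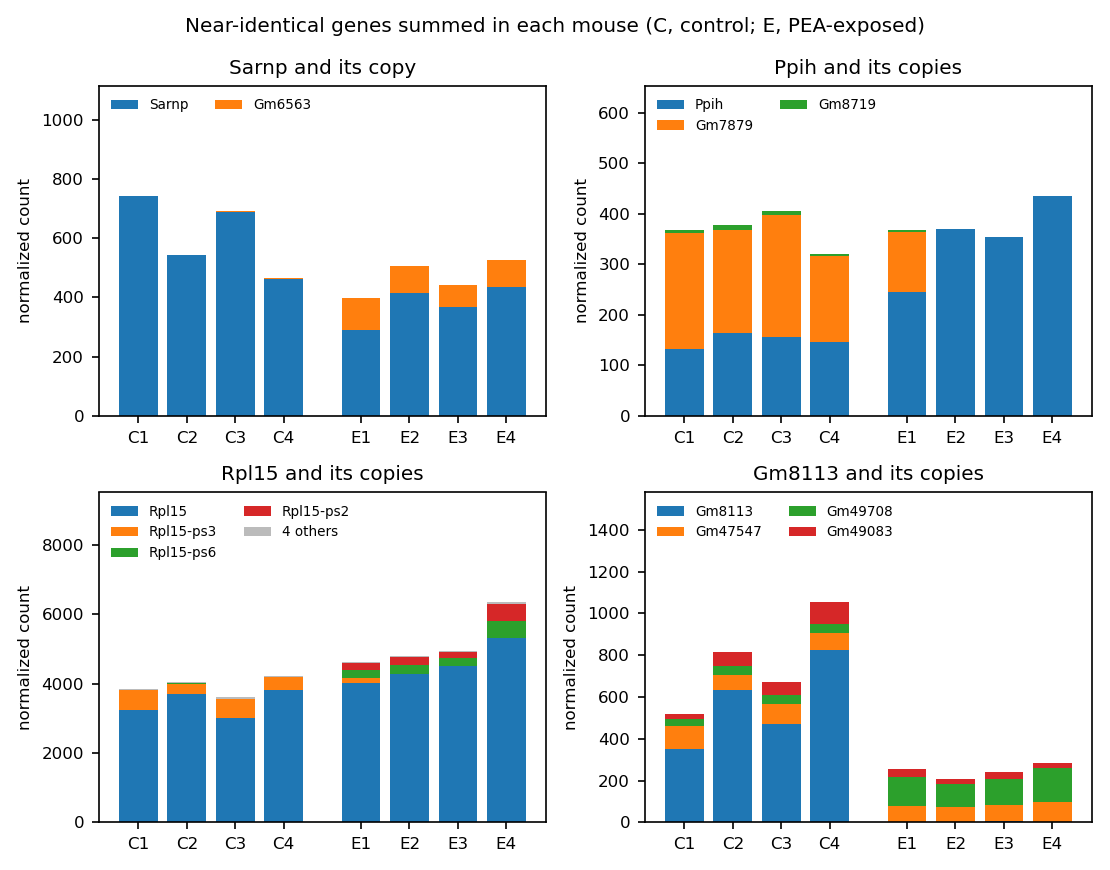
Normalized counts of near-identical genes stacked in each mouse for 4 groups of copies (C1 to C4, control; E1 to E4, PEA-exposed). The parts change between the groups of mice in all 4 panels, while the height of the bars overlaps between groups for Sarnp and Ppih and does not for Rpl15 and Gm8113.

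The other groups of copies held 8 called genes. Gm8113 and Gm49708 belong to 1 group, in which Gm49708 on chromosome 16 rose from 30.5 to 42.3 in control mice to 107 to 162 in exposed mice (log2 difference 1.75, adjusted p = 0.00318 by limma). The sum of that group was 517 to 1053 in control and 210 to 284 in exposed mice, a log2 difference of -1.59 (SE 0.23), so the sum was lower in all exposed mice. Rps26-ps1 was 0 to 0.896 in control and 45.7 to 84.4 in exposed mice (log2 difference 5.48, adjusted p = 0.000299 by limma), and the sum with Rps26 was 590 to 987 and 981 to 1719 (exact two-sided permutation p = 0.0571). Gm9118, a copy of the nucleolar gene Npm1, fell by 5.05 (adjusted p = 7.15e-06 by limma). Csnk2a3, a copy of the kinase gene Csnk2a1, had a log2 difference of -6.10 (adjusted p = 0.0116 by limma). Gm6644 (a copy of Akr1b3), Gm5487 (of Mcm7) and Tmem181c-ps (of Tmem181a) rose by 5.41, 3.58 and 2.99, with adjusted p = 0.000871, 0.00640 and 0.00184 by limma. Over these last 5 groups the sums differed by between -0.21 and 0.22 on the log2 scale and the groups overlapped. The sum with Tmem181a was 1067 to 1127 in control mice but 1508, 686, 805 and 1450 in exposed mice 1 to 4, on both sides of the controls. Of the 10 sums 2 did not overlap, with an exact two-sided permutation p = 0.0286 each, the smallest that 4 against 4 mice allow (0.143 after Benjamini-Hochberg adjustment over the 10 sums). In the Kir2.1 experiment, with its other library type, values of the copies were 4889 to 6071 for Rps26-ps1 and 2869 to 3634 for Rpl15-ps6.

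Tmsb15b1, a thymosin beta gene on the X chromosome, overlaps the locus of its near copy Tmsb15b2. It fell from 49.3 to 62.4 in control mice to 7.06 to 18.0 in exposed mice (log2 difference -2.16, SE 0.29, adjusted p = 0.0189 by limma). Tmsb15b2 was 89.8 to 150 in control and 20.1 to 53.4 in exposed mice, so both copies were lower in all exposed mice.

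Genes of immune cells and of antigen presentation were called in both directions. Padi4, the peptidylarginine deiminase with which neutrophils citrullinate histones, was 33.2, 32.5, 27.9 and 29.4 in control mice and 0.743, 1.40, 0 and 0.513 in exposed mice. It was the only gene tested that lay under 3 in all exposed and at 10 or more in all control mice, and it fell by 4.32 on the log2 scale (SE 0.43, adjusted p = 0.00184 by limma, GC-corrected adjusted p = 0.00133). Of 14 neutrophil markers listed, 7 passed the filter, 1 was higher and 2 lower at an unadjusted p under 0.05, against 8.93% higher and 6.04% lower over all genes. Besides Padi4 the lower one was Mmp9, a matrix protease named after its values were seen, which was 351 to 536 in control and 234 to 302 in exposed mice (log2 difference -0.63, adjusted p = 0.138 by limma). Both lower genes kept the groups apart, as 3.86% of all genes tested did in that direction. Since 1 marker went the other way, these 2 do not stand for the list. Ltf, lactoferrin, the most abundant listed gene and also a product of glands, was 6373 to 17223 and 8509 to 19595. The defining genes Ly6g, Mpo and Elane stayed below the filter, at 7.53 or less in every mouse, and the median log2 difference of the 7 tested was 0.09, with 4 above 0. S100a8, S100a9 and Ncf1, named after their values were seen, had log2 differences of 0.18, 0.09 and 0.10 and overlapped between groups. The mean log2 level of the 7 markers was 6.90 to 7.56 in control and 6.39 to 6.98 in exposed mice, and that of the 6 without Padi4 was 7.24 to 7.97 in control and 7.32 to 8.14 in exposed mice. In such bulk RNA, fewer cells of a type and less RNA in each cannot be told apart.

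H2-K1, a classical class I gene of the major histocompatibility complex (MHC) on chromosome 17 (33996017 to 34000347), was 299, 264, 206 and 442 in control mice and 810, 897, 949 and 599 in exposed mice. All exposed mice lay above all controls (log2 difference 1.46, SE 0.22, adjusted p = 0.0371 by limma), and the GC-corrected difference was 1.32 with an adjusted p of 0.0798. Of 21 H2 genes tested, 10 were higher and 2 lower at an unadjusted p under 0.05, against 8.93% and 6.04% of all genes. The median was 0.41 against -0.02 over all genes. After GC correction 7 of 20 were higher and 3 lower, with a median of 0.22. H2-T22 and H2-Ea, with control means of 6.70 and 0.728, passed the filter through the exposed mice. These counts are therefore not read as a result about the family, and the median fell with no filter on low values. H2-D1, the other classical class I gene and the H2 gene with the highest mean, was 517 to 760 in control and 689 to 934 in exposed mice (log2 difference 0.41, adjusted p = 0.256 by limma, 0.21 GC-corrected). Single H2 genes, named here after their values were seen, also set exposed mice apart from each other. H2-T22 was 1.10 to 11.4 in control mice, 101 to 143 in exposed mice 1 to 3 and 17.6 in exposed mouse 4 (log2 difference 3.57, adjusted p = 0.0853 by limma). H2-Ea, a class II gene that the b haplotype of C57BL/6 is known not to transcribe, was 22.7, 23.8 and 31.1 in exposed mice 1 to 3, 0 in exposed mouse 4 and 1.72 or less in control mice. Whether the RNA of these 3 mice came from another haplotype than that of their recorded strain was not tested. In the Kir2.1 experiment, with libraries of another kind, H2-Ea lay between 0 and 40.9. Of 73 neighbours of H2-K1 within 1 Mb, 16 (21.9%) had an unadjusted p under 0.05, against 15.0% of all genes. Of the 16, 15 were higher, and neighbours were not counted after GC correction. Genotypes of the mice were not given, so the alleles behind these levels cannot be told apart from exposure.

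Interferon is known to raise class I genes. Of 19 interferon response genes tested none was called and 13 had a log2 difference above 0. Their median was 0.11, or 0.14 GC-corrected, against -0.02 over all genes. Ifit2 alone had an unadjusted p under 0.05 (log2 difference -0.41, adjusted p = 0.263 by limma), against 8.93% higher and 6.04% lower over all genes. After GC correction 1 gene was higher and none lower at that p. Whether interferon bears on the level of H2-K1 was not tested. Ddx58, the most abundant of them, was 514 to 592 in control and 540 to 667 in exposed mice. Ulbp1, a ligand of the natural killer cell receptor NKG2D on chromosome 10, was 191, 118, 276 and 197 in control mice and 78.1, 45.4, 59.9 and 51.4 in exposed mice (log2 difference -1.68, SE 0.26, adjusted p = 0.0371 by limma; GC-corrected -1.54, adjusted p = 0.0537). Macrophage markers gave no gene at an unadjusted p under 0.05 among 13, and 2 of 15 lymphocyte markers passed the filter.

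Genes for enzymes and membrane proteins rose as single genes. Steap2 and Steap1, neighbours on chromosome 5 that encode members of the STEAP family of metal-reducing membrane proteins, rose together. Steap2 was 336, 819, 338 and 421 in control mice and 1643, 1535, 1513 and 1522 in exposed mice (log2 difference 1.80, SE 0.25, adjusted p = 0.0191 by limma). Steap1 was 59.9, 128, 36.7 and 58.1 in control mice and 309, 284, 252 and 263 in exposed mice (4.28-fold, SE 0.31 in log2, adjusted p = 0.0284 by limma). Control mouse 2 was the highest control for both genes, and the exposed mice lay close together. Of the 12 tested neighbours of Steap1, 3 had an unadjusted p under 0.05, against 15.0% of all genes, and Steap2 was the only one called. Both calls held after GC correction, at adjusted p = 0.0139 for Steap2 and 0.0315 for Steap1 by limma. In the Kir2.1 experiment Steap2 was 4096 to 5082 and Steap1 1138 to 1419, with libraries of another kind.

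Cyp3a13, a cytochrome P450 of drug metabolism on chromosome 5, was 64.1, 22.2, 29.8 and 24.5 in control mice and 158, 111, 134 and 134 in exposed mice (log2 difference 2.02, SE 0.30, adjusted p = 0.0328 by limma). It was the only call among 56 tested genes of the Cyp, Ugt, Gst and Sult families. Of the 56, 8 were higher and 1 lower at an unadjusted p under 0.05, against 8.93% and 6.04% of all genes, and the median was 0.03. Ugt2a1, the olfactory glucuronosyltransferase and the most abundant of these families, was 25677 to 32925 in control and 23892 to 30724 in exposed mice. Of 14 tested genes for the oxidation of amines and of the aldehydes they give, none was called. Fmo2 had the lowest p (log2 difference -0.32, adjusted p = 0.218 by limma), and Aldh1a1, the most abundant, was 2343 to 4271 in control and 3101 to 3732 in exposed mice. Maob, a monoamine oxidase for which PEA is a known substrate and which is named outside the rule for named genes, lay at 488 to 529 and 463 to 525 (log2 difference -0.05, adjusted p = 0.855 by limma).

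Ky, a gene of muscle structure on chromosome 9, rose from 20.3 to 30.8 in control mice to 88.7 to 133 in exposed mice (log2 difference 2.24, SE 0.21, adjusted p = 0.00115 by limma, 0.00116 GC-corrected). Of 12 skeletal muscle markers 2 passed the filter, and neither had an unadjusted p under 0.05. Utp25, a gene of ribosome assembly, was 103 to 117 and 193 to 217 (log2 difference 0.86, adjusted p = 0.0193 by limma, 0.0127 GC-corrected). Dydc2, on chromosome 14, was 38.5 to 99.8 and 186 to 200 (log2 difference 1.59, adjusted p = 0.0392 by limma, 0.0395 GC-corrected). In all 3 genes the groups were apart.

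Gpaa1, Ap5b1 and Lzts1 lost their calls after GC correction, as did H2-K1 and Ulbp1, while all 5 kept their direction and most of their size. Gpaa1, a subunit of the enzyme that adds GPI anchors, was 85.4 to 106 in control and 184 to 229 in exposed mice (log2 difference 1.11, adjusted p = 0.0108 by limma; GC-corrected 0.78, adjusted p = 0.0847). Ap5b1, of the AP-5 sorting complex, was 10.8 to 20.7 and 46.7 to 59.6 (log2 difference 1.88, adjusted p = 0.0210 by limma, 0.0930 GC-corrected). Lzts1, a leucine zipper protein, was 119 to 149 and 218 to 285 (log2 difference 0.88, adjusted p = 0.0362 by limma; GC-corrected 0.77, adjusted p = 0.0847). The transcripts of Gpaa1 and Ap5b1 had 59.9% and 61.8% GC. Of 65 neighbours of Gpaa1 28 were higher at an unadjusted p under 0.05 and none lower, against 8.93% and 6.04% of all genes.

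Marker lists of the cells of the epithelium were then compared, by counts at an unadjusted p under 0.05 and by medians, beside 8.93% higher, 6.04% lower and a median of -0.02 over all genes (5.69% and 4.42% after GC correction). Of 19 lists of cell type markers 2 held a called gene, those of neutrophils and of nasal glands. Each of 20 markers of mature OSNs passed the filter. All 13 macrophage and all 9 endothelium markers passed it too, so passing it does not identify the tissue. Of the 20 markers of mature OSNs 1 was higher and 3 lower, with a median of -0.07. Omp, the marker of mature OSNs, was 6087 to 7326 in control and 7510 to 10082 in exposed mice (log2 difference 0.31, adjusted p = 0.252 by limma), and 0.07 GC-corrected. Ncam2, an adhesion molecule of OSN axons, was 1065 to 1826 and 862 to 983 (log2 difference -0.60, adjusted p = 0.131 by limma). Of 13 markers of immature OSNs, 2 were higher and 1 lower, with a median of -0.08. Tubb3 had a log2 difference of 0.43 (adjusted p = 0.223 by limma), or 0.16 GC-corrected, and Dpysl3, the most abundant, one of -0.08 (adjusted p = 0.729 by limma).

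Among markers of non-neuronal cells no epithelial gene was called outside the glands. Of 9 markers of horizontal basal cells 4 were higher and none lower, with a median of 0.25, and 3 with a median of 0.12 after GC correction. Krt14, a keratin of these cells, was 220, 151, 179 and 199 in control mice and 279, 268, 283 and 317 in exposed mice (log2 difference 0.62, SE 0.14, adjusted p = 0.108 by limma, 0.423 GC-corrected). Egfr, the most abundant of the list, had a log2 difference of -0.28 (adjusted p = 0.344 by limma). Of 10 markers of microvillar and tuft-like cells 5 were higher and none lower, with a median of 0.48 and, after GC correction, 2 and a median of 0.42. Coch, the most abundant and the one with the lowest p, was 1856 to 2048 in control and 2361 to 2899 in exposed mice (log2 difference 0.43, SE 0.09, adjusted p = 0.0997 by limma, 0.0836 GC-corrected). Among 12 sustentacular markers 2 were higher and none lower, with a median of 0.09, and Notch2 had the lowest p (log2 difference 0.33, adjusted p = 0.219 by limma).

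Muc5ac, a gel-forming mucin of airway goblet cells on chromosome 7, was the called gland marker. It was 601, 412, 559 and 681 in control mice and 2268, 2464, 2059 and 1050 in exposed mice (log2 difference 1.75, SE 0.26, adjusted p = 0.0284 by limma, 0.0467 GC-corrected). Of 18 gland markers 6 were higher and none lower, with a median of 0.20 before and after GC correction, and the median was -0.03 without exposed mouse 3. Bpifb9b, the most abundant gene of the glands, was 376939 to 1013661 in control and 415710 to 757595 in exposed mice and its groups overlapped widely. In the Kir2.1 experiment Muc5ac ranged from 179 to 8584 among 6 mice given no PEA.

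Markers of tissues beside the epithelium varied between mice. Of 11 markers of cartilage and bone 3 were lower and none higher, with a median of -0.19, and 5 lower with a median of -0.43 after GC correction. Ibsp, bone sialoprotein, was 1765 in control mouse 1, 345 to 493 in the other control mice and 227 to 247 in exposed mice (log2 difference -1.37, adjusted p = 0.177 by limma), and Spp1, osteopontin, was 3784, 842 to 1206 and 528 to 747. Vomeronasal receptor genes, of which 126 of 573 were tested, had a mean log2 level of 5.77, 4.68, 3.91 and 1.38 in control mice and 5.33, 1.66, 1.39 and 1.38 in exposed mice. The median log2 difference was -1.52, and 6 genes were lower and none higher at an unadjusted p under 0.05, against 6.04% and 8.93% of all genes. For the most part these genes passed the filter through control mice 1 to 3 and exposed mouse 1, so the median is not read as a result about the family. Vmn1r176 had the lowest p of them (log2 difference -1.35, adjusted p = 0.221 by limma), and Vmn2r1, the most abundant, had a log2 difference of -1.67 (adjusted p = 0.501 by limma). Their part in the results was tested only as follows. With that mean level as a covariate 20 of the 31 genes stayed called, Ang4, Ang5, Gm8113, Padi4, Ky and Cyp3a13 among them, while Steap1, Steap2, Muc5ac, H2-K1 and Ulbp1 were among the 11 that did not. The size of these 5 was little altered by the covariate, with log2 differences of 2.21 for Steap1 and 1.83 for Steap2 (adjusted p = 0.0612 each by limma), 1.77 for Muc5ac (0.0926), 1.36 for H2-K1 (0.155) and -1.62 for Ulbp1 (0.156).

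**Figure D5:**
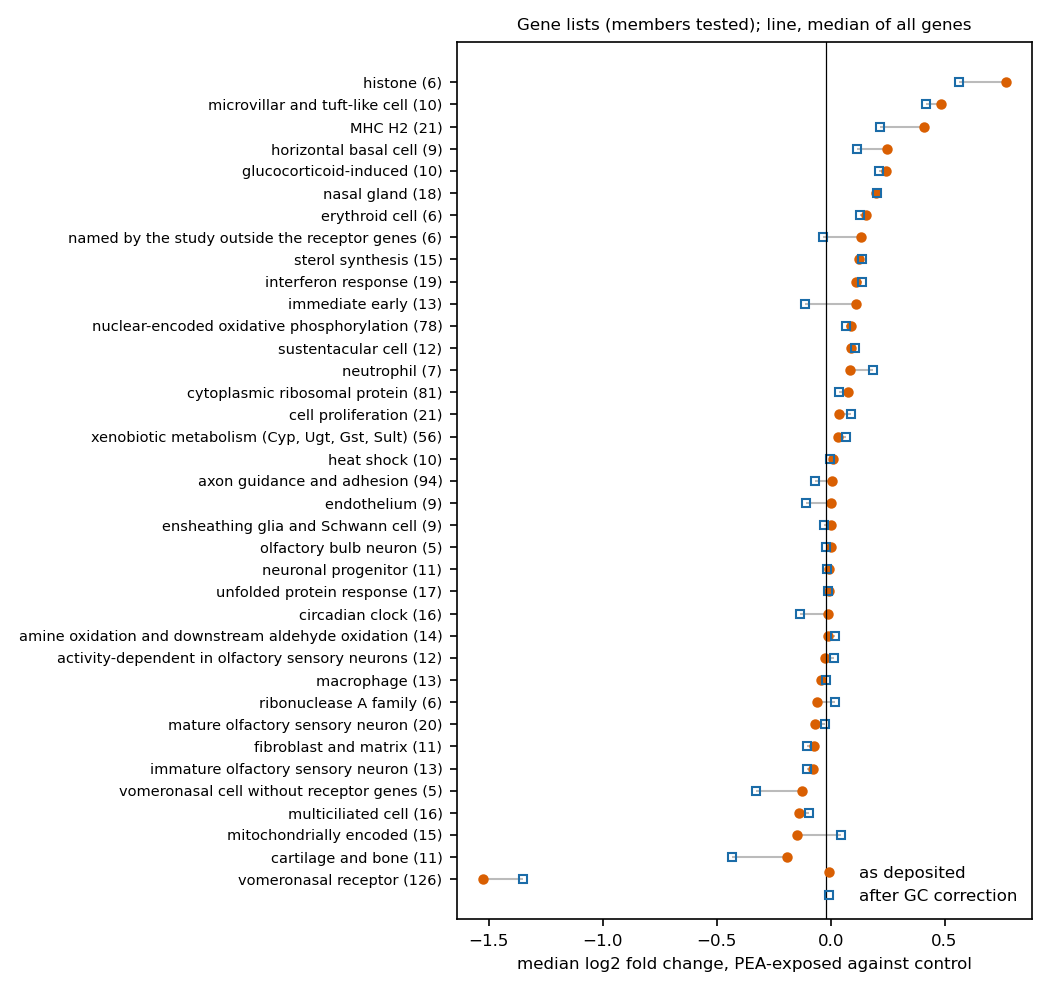
Median log2 difference of the tested members of the 37 gene lists with at least 5 tested genes, as deposited (filled circles) and after GC correction (open squares), with the number tested in brackets. Most medians lie close to the line of all genes, with histone (0.77), microvillar (0.48) and H2 genes (0.41) the farthest to the right of it and vomeronasal receptors far to the left. The histone median was 0.56 after GC correction. Vomeronasal receptors passed the filter for the most part through control mice 1 to 3 and exposed mouse 1.

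Genes that respond to neuronal activity were examined because exposure was to an odor. Of 12 tested activity-dependent genes of OSNs none was called and 1 was higher at an unadjusted p under 0.05, against 8.93% of all genes, with a median of -0.03. S100a5, a calcium-binding protein of active OSNs, was 1611 to 1838 in control and 1803 to 2169 in exposed mice (log2 difference 0.21, SE 0.09, adjusted p = 0.319 by limma). Of 13 immediate early genes 1 was higher and 1 lower, against 8.93% and 6.04% of all genes, and the median of 0.11 became -0.11 after GC correction. Btg2, with the lowest p, was 528 to 707 in control and 703 to 769 in exposed mice (log2 difference 0.33, adjusted p = 0.213 by limma). Taar4, the receptor for PEA itself, was 15.0, 13.1, 18.6 and 20.5 in control mice and 7.39, 8.56, 12.4 and 10.7 in exposed mice, all exposed mice below all controls (log2 difference -0.73, SE 0.32, unadjusted p = 0.0437, adjusted p = 0.319 by limma).

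Axon guidance and adhesion genes gave values in both directions: of 94 tested none was called, 7 were higher and 8 lower, and the median was 0.01 (3, 7 and -0.07 after GC correction). Over all genes 8.93% were higher and 6.04% lower at an unadjusted p under 0.05 (5.69% and 4.42% after GC correction). Clstn2, a calsyntenin of synapses, was 1042, 1641, 1127 and 1623 in control mice and 753, 769, 675 and 551 in exposed mice (log2 difference -0.96, SE 0.17, adjusted p = 0.0680 by limma). Cntn4, a contactin of OSN axons, was 5688 to 6640 and 4248 to 5535 (log2 difference -0.39, adjusted p = 0.144 by limma, -0.24 GC-corrected). Both are among 6 genes outside the receptor families that the study names for this experiment, a choice made on these same samples, so their direction is not independent evidence. Ccdc33 was 233 to 317 in control and 403 to 576 in exposed mice (log2 difference 0.88, SE 0.15, adjusted p = 0.0608 by limma), Atp8b3 was 142 to 214 and 265 to 326 (log2 difference 0.62, adjusted p = 0.131) and Icmt 588 to 673 and 727 to 794 (log2 difference 0.29, adjusted p = 0.199, 0.17 GC-corrected). For these 5 genes the groups did not overlap, as for 9.32% of all genes tested. Since the study chose them on these same samples, this is not independent evidence either. The sixth name is spelled in more than 1 way in the study's text, so which kinesin gene is meant is uncertain. Kif7 was 26.5 to 38.3 in control and 27.9 to 35.9 in exposed mice and its groups overlapped (log2 difference -0.02, adjusted p = 0.974 by limma, -0.34 GC-corrected). Kif17, added after its values were seen, was 21.7, 24.9, 13.4 and 19.9 in control mice and 38.9, 47.1, 53.3 and 34.4 in exposed mice, and its groups did not overlap (log2 difference 1.10, SE 0.26, adjusted p = 0.119 by limma, 0.76 GC-corrected).

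Housekeeping families held 1 called gene. At an unadjusted p under 0.05, 8.93% of all genes were higher and 6.04% lower, or 5.69% and 4.42% after GC correction. Of 81 cytoplasmic ribosomal protein genes 22 were higher and 2 lower with a median of 0.08, and 16 and 3 with 0.04 after GC correction. Rpl37a was 2191 to 2766 in control and 3399 to 3878 in exposed mice (log2 difference 0.56, adjusted p = 0.0676 by limma, 0.408 GC-corrected), while Rpl7, the most abundant, had a log2 difference of -0.31 (adjusted p = 0.494). Of 78 nuclear genes of oxidative phosphorylation 17 were higher and 2 lower with a median of 0.09, and 13 and 2 of 76 with 0.07 after GC correction. Ndufa11, a complex I subunit, was called: it was 129 to 159 in control and 249 to 446 in exposed mice (2.27-fold, SE 0.17 in log2, adjusted p = 0.0284 by limma, 0.0395 GC-corrected), and Atp5b, the most abundant, was 8915 to 12015 and 9843 to 11482. Mitochondrially encoded genes had a median of -0.15 with none higher and 3 lower, and of 0.04 after GC correction, and mt-Nd4 had the lowest p (log2 difference -0.49, adjusted p = 0.213 by limma). The 18 other lists, those of macrophages, lymphocytes and skeletal muscle among them, held no called gene, and the medians of the 16 with at least 5 tested genes lay between -0.14 and 0.77, the highest for 6 histone genes. These had low levels, with a mean log2 level of 2.71 to 4.61 in control and 4.07 to 5.77 in exposed mice, and a median GC content of 59.9%. Their GC-corrected median was 0.56, with 1 of 6 higher and none lower.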

How the data were processed

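Olfactory epithelium of 8 mice was measured by stranded total RNA-seq on a NextSeq 500. Per the labels and the study's methods, the authors converted reads with bcl2fastq 2.18, estimated transcript abundance with Salmon 1.3.0 against the Ensembl mouse transcripts (GRCm38, given as mm10 in the labels), summed it to genes with tximport and scaled it with DESeq2 1.30.0. The deposited values are thus a signal per gene, normalized for depth and called normalized counts here; whole reads could not be recovered, so no count model was run. The authors' tables of the 6 Kir2.1 mice were scaled separately and served for levels only. Control mouse 4 is the library numbered 5 by the authors.

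Genes with a mean of at least 10 were tested on log2(value + 1) with limma 3.58.1 (R 4.3.3, empirical Bayes with trend) and Benjamini-Hochberg adjustment at 0.05. Copies were found with BLAST 2.17.0 among GENCODE vM21 transcripts (at least 95% identity over 40% of the longest transcript) and their sums compared by exact two-sided permutation of mice. GC trends were removed from each mouse by lowess (span 0.3, 98.2% of genes). Genes were named if called, if of the lowest p or the highest mean in a list, or if named by the study; others are marked as chosen after their values were seen. Members, lists and rules were chosen with earlier results of these data known. Replicate numbers did not pair the mice. Alternatives were other pseudocounts (0.5 and 5), filters, scalings, covariates and each mouse left out.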

Additional observations from a re-analysis of the deposited data

Results flagged for a closer look

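In 130 groups of 4 mice, 5 held a mouse whose gap to the others exceeded the 95% critical value of Dixon's test, and chance alone gives about 1 in 20. Gm6644 was 1.59 in control mouse 4 and 0 in the other control mice. Olfr888 was 2.74 in control mouse 3 and 0 in the other control mice. Gm49708 was 30.5 in control mouse 1 against 40.7 to 42.3, and Egfr was 704 in the same mouse against 832 to 856. Icmt was 727 in exposed mouse 4 against 784 to 794 in the other exposed mice.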

How the results depend on the processing

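The 31 calls (25 higher, 6 lower) became 52 (39 and 13) with no filter on low values, 128 (96 and 32) at a threshold of 0.10 and 20 (15 higher) with the vomeronasal receptor level as covariate, and 23 (16 higher) with Xist as covariate. Leaving out 1 mouse at a time gave 19 to 43 calls, 12 to 34 higher and 4 to 12 lower; control mouse 4 gave the highest total and exposed mice 2 and 3 the lowest. Same-numbered mice did not deviate together (correlations 0.13, -0.02, -0.05 and 0.10), and with the replicate block 23 genes were called (17 higher), 20 of them shared. The GC fits were chosen after seeing the data: 28 calls, and 19 (14 higher) by GC correction with the replicate block, 18 of them shared; of the 15 genes that stayed called with any mouse left out, this fit lost Gm5487. No called gene turned its direction; with 1 mouse left out 87 of 248 of their values lost the call, and under other alternatives 64 of 414. Small log2 differences of uncalled genes turned sign: Dpysl3 (0.0098, quantile normalization), Ugt2a1 (0.14 under both GC fits, -0.071 to 0.060 with a mouse left out), Atp5b (0.041, quantile normalization; 0.0025, vomeronasal covariate; -0.11 to 0.034 with a mouse left out) and Kif7 (0.00068, Xist covariate; -0.12 to 0.056 with a mouse left out). The cause was not tested. Of 585 list medians 17 moved beyond the spread, among them H2 genes to 0.02 with no filter. Depth is unknown, and 4 mice per group limit the exact permutation tests of sums to p = 0.0286.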

Other observations

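Il18, an epithelial cytokine named here after its values were seen, was 48.5, 42.1, 59.1 and 37.2 in control mice and 96.0, 102, 88.9 and 105 in exposed mice. The groups were apart, with an adjusted p = 0.0586 by limma and 0.0373 after GC correction. Gm14150, likewise named after its values were seen, was 621 to 1398 in control and 164 to 430 in exposed mice, with an adjusted p = 0.0608 by limma and 0.0431 after GC correction. Of 10 glucocorticoid-induced genes 2 were higher and 1 lower at an unadjusted p under 0.05, with a median log2 difference of 0.24, and of 21 proliferation genes 4 were higher and none lower, with a median of 0.04. Over all genes tested 8.93% were higher and 6.04% lower at that p.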
